A study of Mus musculus with 3 samples.

Results

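Natural killer (NK) cells are innate lymphocytes that kill stressed or transformed cells without antigen priming. They store perforin and granzymes, proteases that enter a target cell and start its death, in granules whose release is set by the balance of activating and inhibitory surface receptors. They also secrete chemokines and interferon gamma, which act on macrophages and dendritic cells. In ectopic masses formed in CD-1 mice, 145 of 21503 cells met a transcript rule for this kind. Most of them came from the implants that carried recombinant human BMP2 and were given vehicle only. Of the 145, 4 carried basophil genes and 1 carried dendritic cell genes, as described below.

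The masses were taken on day 5 from female CD-1 mice aged 6 to 8 weeks, and 1 library of droplet single-cell RNA sequencing was made per condition. Matrigel-only mice had an implant of Matrigel, a basement membrane gel, without BMP2 and were dosed with nothing. Vehicle mice had a Matrigel implant with BMP2 and were given corn oil/DMSO by mouth, and Palo mice had the same implant and were given daily palovarotene, an agonist of the gamma form of the retinoic acid receptor, at 4 mg/kg. Vehicle and Matrigel-only therefore differ both in BMP2 and in dosing with the solvent, whereas Palo and Vehicle differ in the drug. The masses of each mouse group went into 1 suspension and 1 library, so no difference below has a replicate check and no test between conditions was possible. All intervals are 95% intervals and cover counting error only. Those of levels treat each UMI as independent, so they leave out the unequal spread of a gene's UMIs over few cells.

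The cells were selected on transcripts counted as unique molecular identifiers (UMIs). A member had 200 to 6000 detected genes and at most 5% mitochondrial UMIs, under 1% of its UMIs from 5 stromal genes, no UMI of *C1qa* or *Csf1r* (macrophage genes), no UMI of *Cd3e*, *Cd3d* or *Cd3g* (the T-cell receptor complex), and at least 2 detected genes out of *Nkg7*, *Gzma*, *Gzmb*, *Ncr1*, *Klrb1c* and *Klrd1*. The rule found 32 NK cells among the 8728 Matrigel-only cells that passed the limits on genes and mitochondrial UMIs, 93 among 5478 in Vehicle and 20 among 7297 in Palo. The members were chosen by these values, so the levels of the 6 rule genes are descriptions only. Among the 145 members, 27 held all 6 rule genes, 36 held 5, 38 held 4, 28 held 3 and 16 stood at the threshold of 2. Just outside it were 72 cells with 1 rule gene, and in 35 of these that gene was *Klrd1*, against 6 with *Gzma* and none with *Ncr1*.

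The median NK cell held 1439.5 UMIs for Matrigel-only, 1501 for Vehicle and 2222 for Palo, so the Palo cells were the deepest and the fewest. Summed over NK cells the libraries gave 56445, 191317 and 54642 UMIs, out of 44252421, 46317250 and 46901673 UMIs over all barcodes. Levels below are given as CPM, that is UMIs per 1000000 of these NK sums. Between pairs of libraries 11 to 21 barcodes were shared, and no barcode was a member in both libraries of a pair.

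Sequence upstream of the rule genes is shown first because these genes define the cells and include the pair of granzymes in which the conditions differed. In the set of RefSeq (GRCm38.p6) promoters used here, 5 of the 6 rule genes were matched, all but *Klrd1*. The window of *Prf1*, perforin, was added. Each line gives the 200 bases before the RefSeq transcript start, 5′ to 3′ on the gene's strand. The GENCODE annotation places some starts elsewhere. There *Klrb1c* starts at 128789215 and *Nkg7* at 43437073, so the *Klrb1c* window and the end of the *Nkg7* window, with its GGTGTGA, lie inside the gene. *Gzmb* starts there at 56262260, further downstream than its window. Capitals mark TGTGGT, the core letters bound by Runx factors, GGTGTGA, a T-box site of the kind bound by Eomes and T-bet, and TGANTCA, the AP-1 element, each searched on both strands, with no overlap between motifs in these windows.
Nkg7, chr7:43436938-43437137, plus strand: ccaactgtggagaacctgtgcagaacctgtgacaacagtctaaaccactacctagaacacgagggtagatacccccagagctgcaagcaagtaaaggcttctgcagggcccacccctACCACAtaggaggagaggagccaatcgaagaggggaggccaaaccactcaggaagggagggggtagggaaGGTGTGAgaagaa
Gzma, chr13:113100982-113101181, minus strand: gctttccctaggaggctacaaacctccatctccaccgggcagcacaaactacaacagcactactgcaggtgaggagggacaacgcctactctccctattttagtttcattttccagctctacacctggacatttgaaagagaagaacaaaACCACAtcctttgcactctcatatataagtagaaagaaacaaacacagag
Gzmb, chr14:56262335-56262534, minus strand: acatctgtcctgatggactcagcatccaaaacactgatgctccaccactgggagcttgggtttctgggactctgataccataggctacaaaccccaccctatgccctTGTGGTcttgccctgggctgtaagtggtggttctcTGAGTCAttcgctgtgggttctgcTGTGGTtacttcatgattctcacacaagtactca
Ncr1, chr7:4337515-4337714, plus strand: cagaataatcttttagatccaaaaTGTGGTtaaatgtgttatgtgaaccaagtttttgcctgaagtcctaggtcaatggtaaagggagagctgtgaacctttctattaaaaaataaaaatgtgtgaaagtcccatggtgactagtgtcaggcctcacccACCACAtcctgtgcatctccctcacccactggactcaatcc
Klrb1c, chr6:128788642-128788841, minus strand: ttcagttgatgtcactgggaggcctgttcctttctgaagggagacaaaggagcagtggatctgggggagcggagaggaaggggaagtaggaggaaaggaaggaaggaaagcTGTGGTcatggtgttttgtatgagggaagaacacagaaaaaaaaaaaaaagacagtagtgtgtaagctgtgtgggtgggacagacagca
Prf1, chr10:61297636-61297835, plus strand: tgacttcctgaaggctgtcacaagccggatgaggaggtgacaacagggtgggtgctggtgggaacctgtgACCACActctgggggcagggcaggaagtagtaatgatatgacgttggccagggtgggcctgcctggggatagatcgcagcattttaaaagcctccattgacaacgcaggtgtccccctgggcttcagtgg
TGTGGT or its reverse complement was present in the window of all 5 matched rule genes and of *Prf1*, and in 11.2% of 32851 RefSeq promoters. *Gzmb* and *Ncr1* held it at 2 places. In *Gzma* it lay 50 bases before the RefSeq start, and in *Gzmb* the nearer copy lay 34 bases before that start. GGTGTGA was found in the window of *Nkg7* alone among the 6 genes printed (2.64% of all promoters) and TGANTCA in that of *Gzmb* alone (5.48%). The windows of 6 further genes named below, *Eomes*, *Irf8*, *S100a4*, *Tbx21*, *Klra4* and *Xcl1*, held no TGTGGT, and that of *Xcl1* held GGTGTGA. A match of letters is not a measured binding site.

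Most members also held NK genes that the rule did not use. *Il2rb*, the interleukin-2 and interleukin-15 receptor chain that NK cells need, was detected in 29 of 32 Matrigel-only, 81 of 93 Vehicle and 18 of 20 Palo members. *Eomes* or *Tbx21*, the T-box factors of NK cells, was detected in 22 of 32, 68 of 93 and 10 of 20 members, so many Palo members had neither. *Tyrobp*, the DAP12 adaptor of activating receptors, was detected in 25, 78 and 15. For *Il2rb* and *Tyrobp* no share in macrophages is given, so these detections only describe the members. *Cd4*, *Cd8a*, *Cd8b1*, *Cd5* and *Cd6* had no UMI in any member, and *Trac* had 2 UMIs, both in Palo. Of the 19 genes of the T-cell list, 7, 7 and 9 were detected, at a summed 1364, 962 and 1482 CPM. The gene with the most UMIs was *Trbc1*, a T-cell receptor constant gene that NK cells are known to transcribe without rearrangement. *Trbc1* or *Trbc2* was detected in 20, 59 and 16 members, and *Trdc*, the delta-chain constant gene, in 12, 20 and 8. Of the 9 B-cell genes *Ighm*, the mu heavy chain, was the one detected, with 7, 21 and 5 UMIs, and *Cd79a* and *Ms4a1* had none. The 6 plasmacytoid dendritic genes held 6, 31 and 3 UMIs, all of *Bst2* and *Tcf4*, and *Siglech* had none. Of the 9 neutrophil genes 4 were detected, at 7 UMIs, all in Vehicle, and *S100a8* had none. Stromal and macrophage transcripts were more widespread at low counts. The 8 stromal genes held 38, 143 and 19 UMIs or 673, 747 and 348 CPM, with at most 6 UMIs in any member, and at least 1 of them was found in 21, 71 and 12 members and at least 2 in 8, 37 and 4. *Col1a1*, a collagen chain, had the most, in 9, 36 and 7 members. The 13 macrophage genes held 23, 43 and 21 UMIs, and *Csf1r* and *C1qa* were absent by the rule. Of the 4 stromal genes measured 2, *Col1a2* and *Sparc*, were past 2-fold lower in Palo than in Vehicle, with a median of -1.11, and in Vehicle over Matrigel-only none was, with a median of 0.33. Without the cells of another lineage, described next, 1 of the 4, *Sparc*, was past 2-fold higher in Vehicle than in Matrigel-only, with a median of 0.54. The stromal level was thus lowest in Palo, as for several genes below, and its part in those differences was not tested.

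Apart from stromal and macrophage transcripts, 5 members held at least 2 genes of a B-cell, plasmacytoid, neutrophil, basophil or mast cell list or of 5 dendritic genes. In Vehicle, 4 of the 93 members held all 311 NK-cell UMIs of *Mcpt8*, the basophil protease, and the 34 UMIs of *Gata2*, a basophil and mast cell factor. Of the 11 basophil and mast cell genes 8 were detected in Vehicle, at 450 UMIs, and none in the other libraries. They met the rule through *Gzmb* and *Nkg7*, and none had *Gzma*, *Ncr1*, *Klrb1c* or *Eomes*. These 4 cells also held 141 of the 141 Vehicle UMIs of *Ifitm1*, 134 of 136 of *Ccl6*, 61 of 88 of *Ccl4*, 27 of 40 of *Ccl3* and 42 of 54 of *Furin*. *Mcpt8* had 0 UMIs in the other libraries, which allows up to 53.1 CPM in Matrigel-only and 54.9 in Palo. In Matrigel-only, 1 member held 44 of the 47 Matrigel-only UMIs of *H2-Ab1*, a class II gene of antigen-presenting cells. Of the 12 genes of the whole dendritic list it held 198 of 226 UMIs, and the list had 65 and 16 UMIs in Vehicle and Palo, with at least 2 genes in 10 and 3 members. Values are therefore also given without these 5 cells, that is for 31, 89 and 20 members.

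NK cells made up a larger share of the Vehicle library than of either other library. Their share of passing cells was 0.367% (0.251 to 0.517) for Matrigel-only, 1.70% (1.37 to 2.08) for Vehicle and 0.274% (0.167 to 0.423) for Palo. The Vehicle share was 4.63 times that of Matrigel-only (3.07 to 7.15), and the Palo share was 0.161 of that of Vehicle (0.0943 to 0.264). Palo and Matrigel-only did not separate beyond counting error, at a ratio of 0.748 (0.405 to 1.35). Without the cells of another lineage the shares were 0.355%, 1.62% and 0.274%. The ratio of Vehicle to Matrigel-only was then 4.57 (3.01 to 7.12) and that of Palo to Vehicle 0.169 (0.0983 to 0.276). Without cells that held a T-cell receptor constant gene the shares were 0.0802%, 0.493% and 0.0411%, and the ratio of Palo to Vehicle was 0.0834 (0.0162 to 0.271). The intervals leave out the variation between animals, which these data do not hold.

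**Figure D1:**
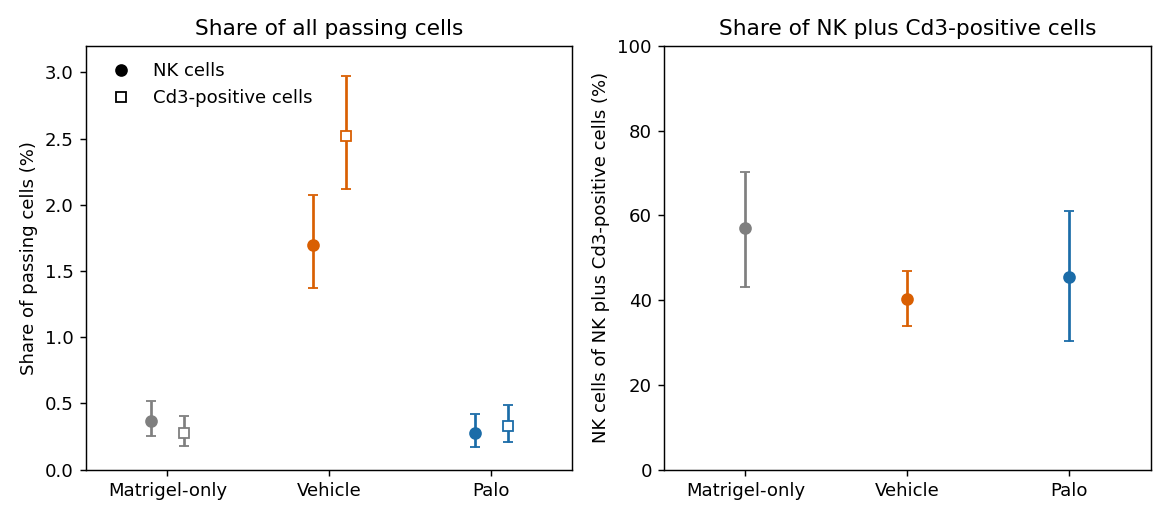
Left, share of passing cells (%) that were NK cells (filled circles) or Cd3-positive cells (open squares) in each library; right, NK cells as a percentage of NK plus Cd3-positive cells. Bars are exact binomial 95% intervals, and Vehicle stands above both other libraries on the left, at 1.70% and 2.52%, while the intervals overlap on the right.

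Vehicle was also the highest among leukocytes and after myeloid and stromal cells were removed from the count, but not relative to Cd3-positive cells. NK cells were 0.633%, 2.99% and 0.362% of *Ptprc*-positive cells (leukocytes). Of the cells that met the stromal, *C1qa* and *Csf1r* limits they were 3.85%, 10.9% and 4.42%, and here the ratio of Vehicle to Matrigel-only was 2.83 (1.88 to 4.38) and that of Palo to Vehicle 0.405 (0.237 to 0.662). This last ratio was 0.213 with every cell thinned to one depth and 0.209 without cells that held a T-cell receptor constant gene. Cd3-positive cells, taken with the same limits and at least 2 UMIs of the Cd3 genes, numbered 24, 138 and 24, or 0.275%, 2.52% and 0.329% of passing cells. NK cells were thus 57.1% (43.2 to 70.3), 40.3% (33.9 to 46.9) and 45.5% (30.4 to 61.2) of both kinds together, so Vehicle was the lowest here and the intervals overlapped. Without NK cells that held a T-cell receptor constant gene these were 22.6%, 16.4% and 11.1%, and Palo was the lowest.

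Granzymes separated the conditions most clearly among the rule genes. *Gzma*, a tryptase of the lytic granule, stood at 3260 CPM (2806 to 3766) for Matrigel-only, 8295 (7892 to 8714) for Vehicle and 3367 (2898 to 3891) for Palo. *Gzmb*, the caspase-activating granzyme, stood at 230 (123 to 394), 1908 (1717 to 2114) and 275 (154 to 453). In both, Vehicle was high, and Matrigel-only and Palo overlapped. *Gzma* was 2.54 times as high in Vehicle as in Matrigel-only (2.18 to 2.98) and in Palo 0.406 of Vehicle (0.347 to 0.473). *Gzmb* was 8.28 times as high (4.78 to 15.7), and in Palo 0.144 of Vehicle (0.0797 to 0.24). Without the cells that carried another lineage's genes, the *Gzmb* ratios were 6.84 and 0.168 and the *Gzma* ratios 2.66 and 0.375.

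Per cell, Vehicle had both a larger share of cells with *Gzma* and a higher median of it. *Gzma* ranged from 0 to 131 UMIs per 10000 in Matrigel-only cells with a median of 28.8, from 0 to 335 in Vehicle with a median of 64.9, and from 0 to 136 in Palo with a median of 38.6. No *Gzma* UMI was found in 11 of 32, 9 of 93 and 8 of 20 cells, and neither granzyme in 10, 4 and 7. Macrophages, which should lack it, had a *Gzma* UMI in 2 of 4114, 14 of 1901 and 4 of 3994 cells, or 0.0486%, 0.736% and 0.1%, so this background was also highest in Vehicle. Both granzymes were detected together in 6, 45 and 6 cells. *Gzmb* had a median of 0, 4.76 and 0 UMIs per 10000, and 3 Vehicle cells held 156 of its 365 Vehicle UMIs. The highest of these, at 72 UMIs, was one of the 4 cells with *Mcpt8*. All 4 had *Gzmb* and are counted in the Vehicle shares that follow. With every cell thinned to 700 UMIs, *Gzmb* was detected in 9.48% (1.88 to 25.9) of Matrigel-only, 35.3% (25.7 to 45.9) of Vehicle and 16.4% (3.84 to 39.5) of Palo NK cells, against 21.9%, 53.8% and 35% without thinning. Cells with fewer than 700 UMIs were left out, so that 30 of 32, 93 of 93 and 20 of 20 were used for *Gzmb* and the other thinned shares. At that depth the intervals of all 3 libraries overlapped. Macrophages had a *Gzmb* UMI in 0 of 4114, 6 of 1901 (0.316%) and 0 of 3994 cells, at median depths of 3101.5, 4062 and 4060.5 UMIs. The counts of 0 allow shares of up to 0.0729% and 0.0751%.

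**Figure D2:**
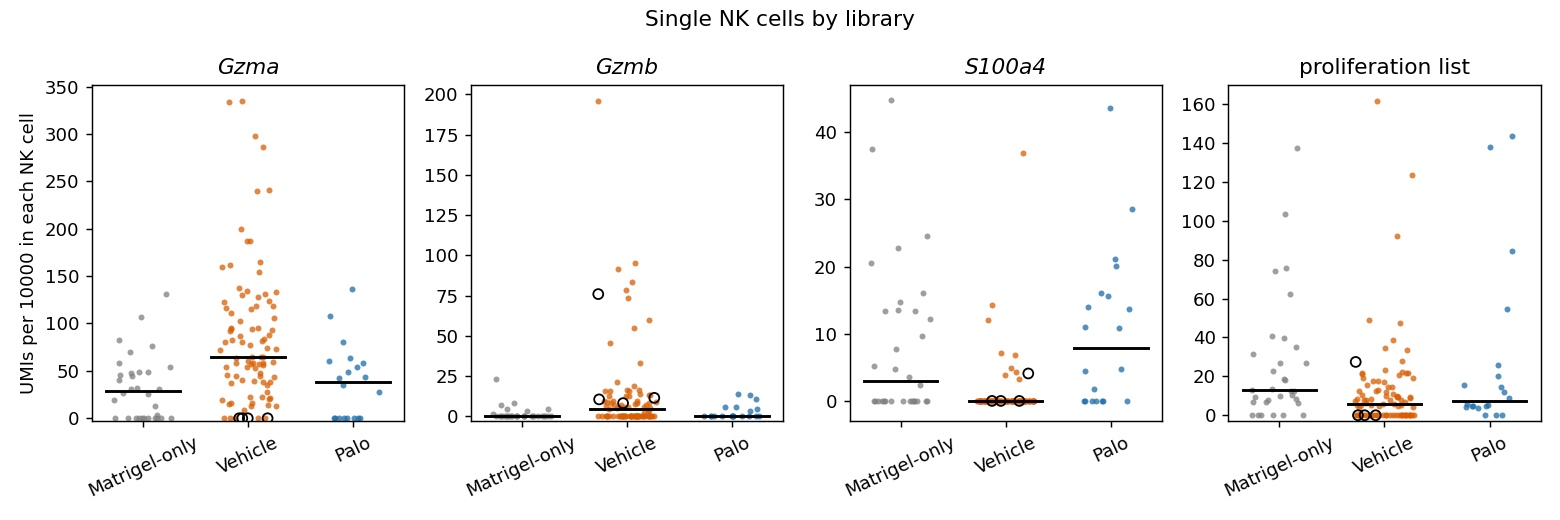
UMIs per 10000 in each of the 145 NK cells, by library, for *Gzma*, *Gzmb*, *S100a4* and the sum of the 16 proliferation genes; each point is 1 cell, black lines are medians and black circles are the 4 Vehicle cells with *Mcpt8*. Vehicle holds the cells with the most *Gzma* and *Gzmb* and 83 of its 93 cells lack *S100a4*.

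The other 4 rule genes differed less. *Nkg7*, a granule membrane protein, stood at 2002, 2305 and 2013 CPM, and its ratio of Vehicle to Matrigel-only was 1.15 (0.934 to 1.43). *Klrb1c*, the NK1.1 receptor, stood at 620, 612 and 586. *Ncr1*, the NKp46 receptor, stood at 833, 580 and 787, with a ratio of Vehicle to Matrigel-only of 0.697 (0.491 to 1.0), an interval that reached 1. *Klrd1*, CD94, stood at 514, 700 and 421, and Palo was at 0.601 of Vehicle (0.368 to 0.94). *Klrb1c* thus gave near-equal levels in all conditions, and for *Ncr1* Vehicle was the lowest.

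Across all genes measured, those with at least 20 UMIs over both libraries' NK cells, few lay past a 2-fold difference. On the log2 scale with 5 added to CPM, 175 of 2318 genes were at least 2-fold higher in Vehicle than in Matrigel-only (7.55%) and 93 at least 2-fold lower (4.01%). Between Palo and Vehicle, 77 of 2256 genes were at least 2-fold higher (3.41%) and 252 lower (11.2%). Between Palo and Matrigel-only, 21 of 878 genes were higher (2.39%) and 40 lower (4.56%). The 3 comparisons share libraries and are not independent. The median log2 ratio of all genes was 0.02 in Vehicle over Matrigel-only and -0.05 in Palo over Vehicle, and with edgeR's TMM factors it was 0.24 and -0.18. The share of higher genes among those past 2-fold then went from 65.3% to 85.4%, from 23.4% to 12.5% and from 34.4% to 52.4%. The balance of higher and lower genes thus depends on the scaling, and the list counts below are to be read against these percentages. List counts without the cells of another lineage have their own values over all genes. These were 167 of 2149 genes higher and 89 lower in Vehicle over Matrigel-only, and 76 of 2088 higher and 194 lower in Palo over Vehicle. Vehicle held the most NK UMIs, so a gene often reached 20 UMIs through its Vehicle level, and counts and medians over measured genes only describe these libraries.

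**Figure D3:**
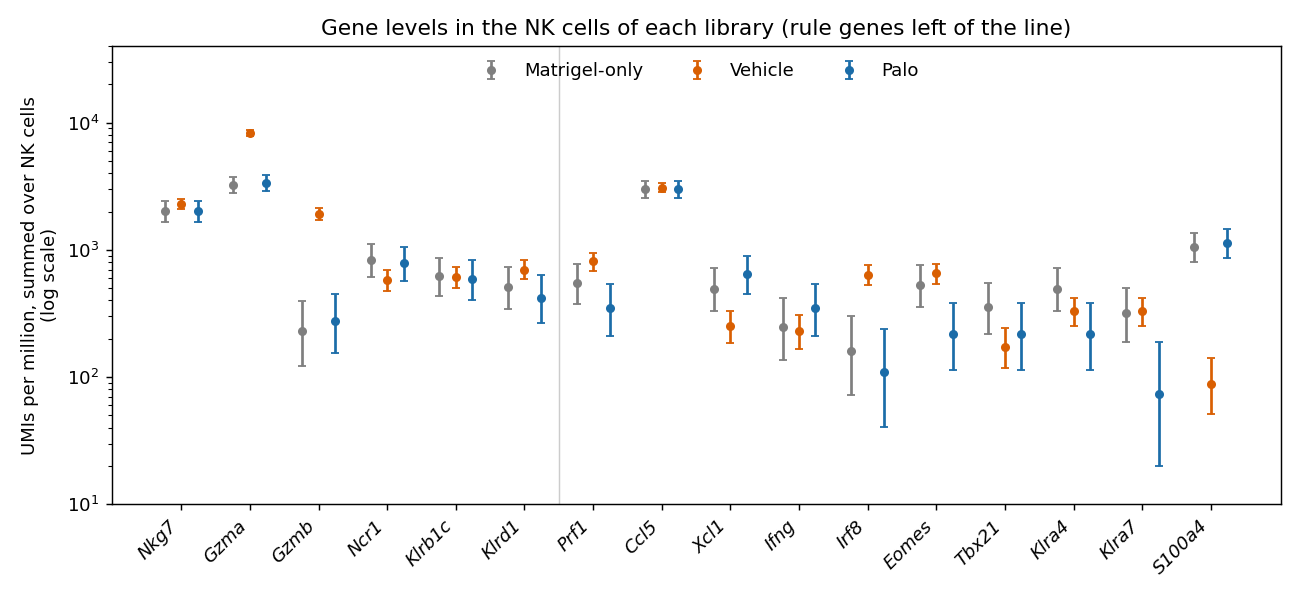
CPM summed over the NK cells of each library (log axis) for the 6 rule genes, left of the line, and 10 further genes; bars are exact Poisson 95% intervals. Vehicle is highest for *Gzma*, *Gzmb* and *Irf8* and lowest for *S100a4*, while *Ccl5* lies at 3012, 3084 and 3001.

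Of the granule list beyond the granzymes of the rule, 8 of 20 genes were measured in Vehicle over Matrigel-only, 1 was past 2-fold higher and none lower, with a median log2 ratio of 0.64 beside 0.02 for all genes. In Palo over Vehicle 3 of 8 were past 2-fold lower and none higher, with a median of -0.63 beside -0.05. *Prf1* stood at 549 (373 to 780), 810 (688 to 948) and 348 (209 to 543) CPM, and Palo was at 0.429 of Vehicle (0.252 to 0.693). *Cst7*, cystatin F, an inhibitor of granule cathepsins, had 6, 34 and 3 UMIs, and *Ctsc*, the cathepsin that activates granzymes, had 4, 28 and 2. The gene past 2-fold in Vehicle was *Srgn*, the granule proteoglycan serglycin, at 390, 836 and 512 CPM. Without the cells of another lineage *Srgn* stood at 404, 498 and 512, a ratio of Vehicle to Matrigel-only of 1.23, and 2 of 8 were past 2-fold higher, *Ctsc* and *Serpinb9*, a granzyme B inhibitor, at 2.08 (0.726 to 8.19) and 2.07 (0.931 to 5.43) times. *Ctsw*, a cathepsin of cytotoxic lymphocytes, stood at 531, 737 and 732 and did not share the Vehicle peak.

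Among 14 transcription factors of NK cells, 11 were measured in both main comparisons. In Vehicle over Matrigel-only 1 was past 2-fold higher and 1 lower, with a median of 0.30, and without the cells of another lineage 1 and none. In Palo over Vehicle none was higher and 5 were lower, with a median of -0.87. That median was -6.33 without cells that held a T-cell receptor constant gene, a value that rests on 3 Palo cells. *Irf8*, an interferon regulatory factor that NK cells require for their response to virus, had 9, 121 and 6 UMIs in 7, 50 and 4 cells. Its level was 159 (72.9 to 303), 632 (525 to 756) and 110 (40.3 to 239) CPM, so that Vehicle stood above both others and these overlapped. Without cells that held a T-cell receptor constant gene the log2 ratio of *Irf8* in Vehicle to Matrigel-only was 0.54, against 1.95. *Eomes* stood at 531 (359 to 759), 653 (544 to 778) and 220 (113 to 384), with Palo at 0.336 of Vehicle (0.169 to 0.608) and at 0.413 of Matrigel-only (0.193 to 0.831). *Eomes* was thus the low value of Palo, whereas *Irf8* was the high value of Vehicle. In Palo, 1 cell held 6 of the 12 *Eomes* UMIs. *Klf2*, which keeps lymphocytes quiescent and able to leave tissue, had 11, 51 and 3 UMIs, a ratio of Palo to Vehicle of 0.206 (0.0411 to 0.637). *Tbx21*, T-bet, went the other way in Vehicle, at 354, 172 and 220 CPM, 0.487 of Matrigel-only (0.271 to 0.895), or 0.509 without the cells of another lineage. *Id2*, which all innate lymphoid cells need, stood at 1683, 2112 and 1684 CPM. The other factors past 2-fold lower in Palo, *Zeb2* and *Ikzf3*, rested on 2 and 3 Palo UMIs.

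Thinned to 700 UMIs per cell, *Irf8* was detected in 13.6%, 32.9% and 6.21% of NK cells, and *Eomes* in 32.9%, 37.0% and 12.4%. For *Irf8* the Vehicle interval at this depth overlapped those of both other libraries. In macrophages, which express *Irf8*, its thinned shares were 13.5%, 15.7% and 16.0%. *Eomes* had a UMI in 1 of 4114, 3 of 1901 and 1 of 3994 macrophages. The plot of thinned shares shows that for *Eomes* the Palo and Vehicle intervals overlapped (2.11 to 34.8 and 27.2 to 47.7), so the lower share of *Eomes*-positive cells in Palo was not resolved at this depth.

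**Figure D4:**
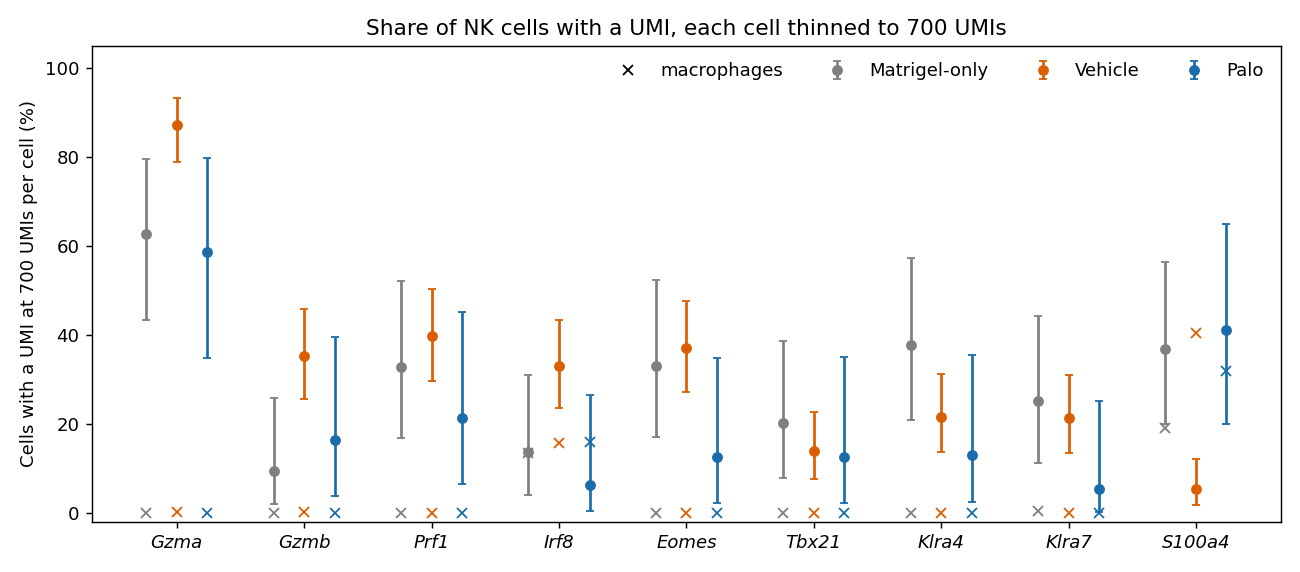
Share of NK cells (%) with at least 1 UMI of each gene after thinning every cell to 700 UMIs; circles are NK cells with exact binomial 95% intervals, crosses are macrophages of the same library. *Gzmb* and *Irf8* are highest in Vehicle, with intervals that overlap those of the other libraries, and *S100a4* is lowest there, at 5.30%.

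The 14 genes that mark conventional, circulating NK cells summed to 2498, 2885 and 1299 CPM. In Palo over Vehicle 7 of them were measured, mostly through their Vehicle UMIs, and 5 were past 2-fold lower and none higher. Among these were *Irf8*, *Eomes*, *Klf2* and *Klra7*, and the first 3 also belong to the factor list above. Without the cells of another lineage the count was the same, 5 of 7. In Vehicle over Matrigel-only 8 were measured, 1 past 2-fold higher and none lower. The 13 genes of tissue-resident group 1 innate lymphoid cells were sparse, at 39, 59 and 66 UMIs or 691, 308 and 1208 CPM, and only 2 were measured in Palo over Vehicle. These were *Cxcr6*, a tissue homing receptor, with 7, 12 and 14 UMIs, and *Tmem176b*, with 4, 6 and 14. Both were past 2-fold higher in Palo than in Vehicle, at 4.08 (1.75 to 9.67) and 8.17 (2.95 to 25.9) times. *Itga1* (CD49a) or *Cxcr6* was detected in 6, 13 and 6 cells, and *Eomes* was found in 1, 8 and 0 of these. None of the 8 Palo cells without *Gzma* had *Eomes*, and all of them had *S100a4*. In Matrigel-only, with 11 cells without *Gzma*, and in Vehicle, with 9, most such cells lacked *Eomes* and most had *S100a4*. The levels of these genes thus rest partly on the same cells, whose kind was not tested.

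Receptors of the Ly49 family, which bind class I molecules, varied by gene. *Klra7* had 18, 63 and 4 UMIs, *Klra4* 28, 63 and 12, and *Klra1* 26, 12 and 3. *Klra7* in Palo was at 0.222 of Vehicle (0.0588 to 0.598) and *Klra1* in Vehicle was at 0.136 of Matrigel-only (0.0626 to 0.28). *Klra4* or *Klra7* was detected in 19, 57 and 6 cells. Palo and Vehicle thus separated beyond counting error for *Klra7*, whereas the intervals of that ratio held 1 for *Klra4*, at 0.667 (0.327 to 1.25), and *Klra1*, at 0.875 (0.159 to 3.24). The Ly49 genes are near-identical copies whose reads the counting could split, and their levels are uncertain for that reason among others. The reads came from CD-1 mice and were counted on the reference genome mm10, and how well it matches these genes in each animal was not tested. Of the whole receptor list of 24 genes, 3 of 11 measured were past 2-fold lower in Palo than in Vehicle and 1 was higher, *Klrc2*, NKG2C, with 21 and 13 UMIs. Without the cells of another lineage none was past 2-fold higher. In Palo over Matrigel-only 4 of 8 were lower (*Klra1*, *Klra4*, *Klra7* and *Klre1*) and none higher. *Klrk1*, the activating receptor NKG2D, stood at 514, 361 and 403 CPM.

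*Ccl5*, *Ifng* and *Xcl1* did not share the Vehicle peak of the granzymes, and *Ccl4* was highest in Vehicle. *Ccl5*, a chemokine stored and released by cytotoxic lymphocytes, stood at 3012 (2576 to 3500), 3084 (2840 to 3343) and 3001 (2560 to 3497) CPM, a ratio of 1.02 (0.862 to 1.22) for Vehicle to Matrigel-only and 0.973 (0.814 to 1.16) for Palo to Vehicle. *Ifng*, the macrophage-activating interferon, stood at 248, 230 and 348, with 14, 44 and 19 UMIs. *Xcl1*, which attracts cross-presenting dendritic cells, was lowest in Vehicle, at 496, 251 and 641, and Palo was 2.55 times Vehicle (1.6 to 4.03). Of the 14 genes of the cytokine list, 3 of 9 measured were past 2-fold higher in Vehicle than in Matrigel-only. The 2 with the largest ratios, *Ccl4* and *Osm*, had 88 and 30 Vehicle UMIs, of which 27 and 4 remained without the 4 cells with *Mcpt8*. *Ccl4*, a chemokine that attracts monocytes and T cells, then had 2, 27 and 1 UMIs, a ratio of Vehicle to Matrigel-only of 4.17 (1.05 to 36.2) and of Palo to Vehicle of 0.12 (0.00292 to 0.726). Without those cells and the dendritic one, 2 of 6 measured were past 2-fold higher. The third, *Ltb*, lymphotoxin beta, stood at 266, 544 and 439 and was spread over 11, 43 and 11 cells.

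Summed proliferation genes were lowest in Vehicle, and a few cells held most of the sum. Of 16 such genes 10 were measured, none was past 2-fold higher and 5 were lower in Vehicle than in Matrigel-only, with a median of -0.97. In Palo over Vehicle 6 of 10 were higher and none lower, with a median of 1.10. Without the cells of another lineage the counts were 7 of 10 higher in Palo than in Vehicle and 5 of 10 lower in Vehicle than in Matrigel-only. The list summed to 4110, 2216 and 4777 CPM, of which the 3 cells with the most held 138 of 232, 228 of 424 and 209 of 261 UMIs. The median cell held 12.8, 5.83 and 7.2 UMIs per 10000, so Palo and Vehicle lay closer per cell than in the sum. The 14 immediate early genes, which cell dissociation is known to induce, were also lowest in Vehicle as a sum, at 4163, 3037 and 4520 CPM, and *Junb* had the most, 80, 220 and 96 UMIs. Of these, 8 of 10 measured were lower in Vehicle than in Matrigel-only, 1 past 2-fold (*Nr4a2*), and 9 of 11 were higher in Palo than in Vehicle, 1 past 2-fold (*Nr4a1*), with medians of -0.38 and 0.56. Their part in the differences of the proliferation genes and of *S100a4* was not tested. *Hmgb2*, a chromatin protein abundant in cycling cells, stood at 1346 (1061 to 1685), 585 (482 to 704) and 1336 (1047 to 1680), so that Vehicle lay below both others, which overlapped. In each library 1 cell held a large part of its UMIs, 25%, 23.2% and 37.0%, which these intervals do not cover. *Top2a*, topoisomerase II alpha, stood at 638, 298 and 769, and *Mki67* at 337, 183 and 659. At least 3 proliferation genes were detected in 9 of 32, 17 of 93 and 7 of 20 cells, which were deeper than the rest, at a median of 2797, 3772 and 3648 UMIs against 1086, 1386.5 and 1915. Without any cell that held a UMI of a T-cell receptor constant gene, 27 Vehicle and 3 Palo cells remained and the median of Palo over Vehicle turned to -6.59. Within the cells that had fewer than 3 of these genes, *S100a4* stood at 984, 137 and 1065 CPM. The proliferation medians in Vehicle over Matrigel-only and Palo over Vehicle were -0.79 and 0.63 in macrophages (16 genes). In Cd3-positive cells (15 genes) they were 0.03 and 0.98. Those of the immediate early genes were -0.14 and 0.31 in macrophages and -0.58 and 0.72 in Cd3-positive cells. The higher medians in Palo than in Vehicle were thus not particular to NK cells.

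*S100a4*, a calcium-binding protein of motile and effector lymphocytes, had the lowest ratio of Vehicle to Matrigel-only among the genes named by size, at 0.085 (0.0465 to 0.148). It had 59 UMIs in 17 of 32 cells, 17 UMIs in 10 of 93 cells and 62 UMIs in 13 of 20 cells. The level was 1045 (796 to 1348), 88.9 (51.8 to 142) and 1135 (870 to 1455) CPM, and Palo was 12.8 times Vehicle (7.37 to 23.3). With 5 CPM added the log2 ratios of 3.60 for Palo to Vehicle and -3.48 for Vehicle to Matrigel-only were 2.55 and -2.50 with no stromal limit, and 2.78 and -2.44 with every cell thinned. With 1 UMI of *C1qa* or *Csf1r* allowed, the log2 ratio of Vehicle to Matrigel-only was -2.68. In Cd3-positive cells of the same libraries *S100a4* stood at 1360, 1240 and 2056, and in macrophages at 486, 1355 and 773, where Vehicle was the highest. The difference in order between the kinds of cell was not tested.

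**Figure D5:**
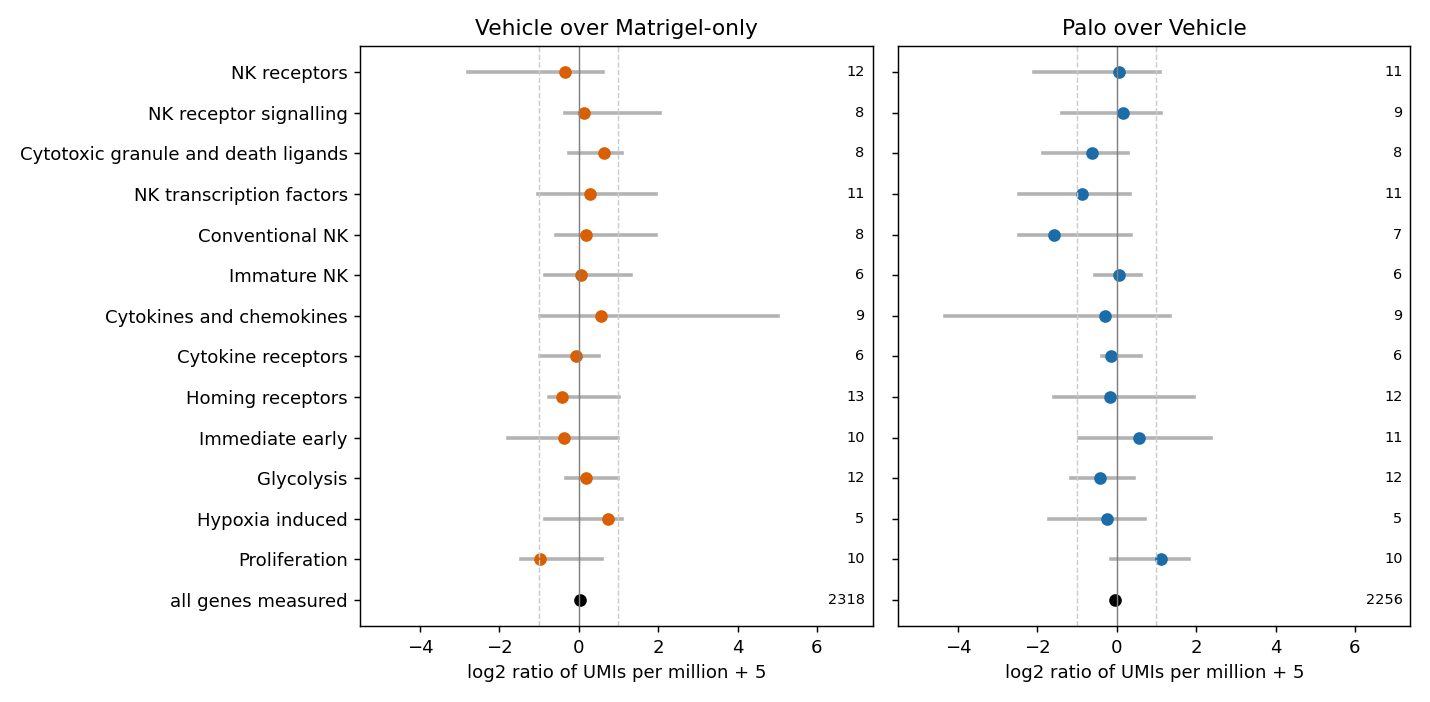
Median log2 ratio (points) and range (grey bars) of the genes of each list measured in NK cells, for Vehicle over Matrigel-only and Palo over Vehicle; the number measured is at the right and dashed lines mark a 2-fold difference. Proliferation lies at -0.97 and 1.10, and the conventional NK list at 0.17 and -1.57, while all genes lie at 0.02 and -0.05.

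Cd3-positive cells of the same masses are set beside the NK cells for *Gzma*, *Gzmb* and *Irf8*. Their *Gzma* stood at 955 CPM in Matrigel-only, where 39 of its 40 UMIs lay in 1 cell, and at 432 in Vehicle with 173 UMIs, and Palo had none, which allows up to 46.4. Their *Gzmb* stood at 71.6, 941 and 46.4, high in Vehicle as in NK cells, where it reached 1908. *Irf8* stood at 71.6 and 137 in the Cd3-positive cells of Matrigel-only and Vehicle, with 3 and 55 UMIs, and none in Palo. Few cells stand behind these values, and whether the differences between conditions differ between the 2 kinds of cell was not tested.

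Of the interferon list of 21 genes, 4 were measured in Vehicle over Matrigel-only and 3 were past 2-fold higher. *Ly6a*, Sca-1, had 2, 85 and 12 UMIs in 2, 32 and 4 cells, and *Bst2*, tetherin, had 2, 18 and 2. No background share is given for *Ly6a*, and the part of stromal transcripts in its counts was not tested. In Palo over Vehicle 2 of 4 were past 2-fold lower, *Bst2* and *Ly6a*. The median of this comparison turned to 1.59 without cells that held a T-cell receptor constant gene. The list summed to 656, 1281 and 824 CPM. In macrophages all 21 genes were measured, with a median of 0.76 in Vehicle over Matrigel-only beside -0.03 for all their genes, and in Cd3-positive cells 11, with a median of 2.64 beside 0.06. NK cells were too few to measure most of the list.

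Few genes of homing, signalling and metabolism were past 2-fold between Vehicle and Matrigel-only. Of 19 homing receptors, 1 of 13 measured was past 2-fold higher in Vehicle than in Matrigel-only, *Itgal*, the LFA-1 integrin chain, at 266, 538 and 439 CPM. In Palo over Vehicle 3 of 12 were lower and 1, *Cxcr6*, was higher. Of 13 genes of receptor signalling, *Sh2d1a*, the adaptor SAP, was the 1 of 8 measured that was higher in Vehicle, with 3, 45 and 8 UMIs, and in Palo over Vehicle 1 of 9 was higher and 2 were lower, or 1 and 1 without the cells of another lineage. The 12 measured glycolytic genes had medians of 0.17 in Vehicle over Matrigel-only and -0.41 in Palo over Vehicle, with none past 2-fold in the first and 2 lower in the second. Without the cells of another lineage 1 of 11 was higher in the first, *Slc2a1*, the glucose transporter GLUT1, with 2 and 19 UMIs, and none lower in the second. None of 6 measured cytokine receptors was past 2-fold in either of these comparisons, and *Il2rb* stood at 1506, 1474 and 1135. *Ctla2a*, a cathepsin inhibitor gene on the list of immature NK genes, was lowest in Matrigel-only, at 301, 753 and 732.

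The remaining genes named by size were of mixed kinds. In Vehicle over Matrigel-only the log2 ratio was 1.84 for both *Mndal*, of the interferon-inducible p200 family, and *Ythdc1*, a reader of methylated RNA. It was -1.50 for *Vcp*, an unfolding ATPase, -1.46 for *Tob2*, an antiproliferative factor, -1.28 for *Sfxn1*, a mitochondrial serine carrier, -1.11 for *Arf1*, a trafficking GTPase, and -1.01 for *Zyx*, an adhesion protein. *Ubb*, polyubiquitin, had 14, 39 and 39 UMIs, and its log2 ratio of Palo to Vehicle was 1.78. In the same comparison *Adgre5*, the adhesion receptor CD97, stood at 1.27, *Trbc2* at 1.47, and *Rbbp6*, *Ybx3* and *Padi2* at -3.30, -2.47 and -2.43 on 1, 2 and 2 Palo UMIs. In Palo over Matrigel-only *Ccnd2*, cyclin D2, stood at 1.07 and *Laptm5*, a lysosomal protein of leukocytes, at -1.03, which turned to 0.65 without cells that held a T-cell receptor constant gene.

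Receptors for activin, BMP and TGF-beta had few UMIs in NK cells. The 9 genes summed to 6, 31 and 13 UMIs or 106, 162 and 238 CPM, with at least 1 found in 6, 27 and 9 members, *Tgfbr2* had the most, 3, 16 and 6, and *Bmpr1a* and *Acvr2b* had none. *Acvr1*, the receptor mutated in fibrodysplasia ossificans progressiva, had 1 UMI, which lay in one of the 4 Vehicle cells with *Mcpt8*, and *Inhba*, the activin A subunit, also had 1, in Vehicle. Of the retinoic acid receptor genes, *Rara* had 4, 21 and 4 UMIs, *Rarg*, the target of palovarotene, 0, 1 and 1, and *Rarb* none. *Cyp26a1* and *Cyp26b1*, retinoid-induced hydroxylases, had 1 UMI each, both in Vehicle. With totals of 56445 and 54642 UMIs, a gene at 0 could be as high as 53.1 or 54.9 CPM in Matrigel-only or Palo, so these counts set a limit and do not show absence.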

How the data were processed

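The authors deposited 1 matrix of UMI counts per library, made with Cell Ranger 3.0.2 on mm10 and analysed with Seurat 3 per the submitters' processing notes. The values are raw counts of 31053 genes in 9249 Matrigel-only, 6065 Vehicle and 7905 Palo barcodes. The members and gene lists were chosen with earlier results of these data known.

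Counts were summed over the NK cells of a library and divided by their total (CPM). Intervals are exact Poisson for levels, exact binomial (Clopper-Pearson) for shares and conditional binomial for ratios of levels, at 95%. They cover counting error only, and a count of 0 was taken to allow 3 counts. Log2 ratios for counts of genes and list medians had 5 CPM added. No test between conditions was run, since each has 1 library. Beyond the rule genes and list members, the text names genes from the 10 largest log2 ratios in each direction with at least 40 UMIs over both libraries' NK cells, and a level in the higher library no lower than in its other passing cells. Scrublet scores were used for an alternative without doublets, taking the top 0.8% per 1000 cells because its own threshold marked 4 of 21503 cells, and the members otherwise kept any doublets. TMM factors came from edgeR 4.0.16 in R 4.3.3. All other steps used scanpy 1.11.5, pandas 2.3.3, scipy 1.17.1 and numpy 2.4.6 under Python 3.11.15. Scripts were tested on simulated data. Some genes of the lists are counted in them but not reported here by name.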

Additional observations from a re-analysis of the deposited data

Results flagged for a closer look

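Cells with *Cd3e*, *Cd3d* or *Cd3g* and NK genes together were left out of the members, and they were more frequent in Vehicle. Of the passing Vehicle cells 0.529% were Cd3-positive and held at least 2 of the 6 rule genes, that is 29 cells, with an interval that began at 0.355%. In Matrigel-only there were 2 such cells, 0.0229% of passing cells, with an interval that ended at 0.0828%, and in Palo there were also 2. Of all Cd3-positive cells these were 2 of 24, 29 of 138 and 2 of 24, and the number of Cd3-positive cells was itself highest in Vehicle. No test was possible with 1 library per condition.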

How the results depend on the processing

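Of the alternatives to the membership rule, requiring no UMI of *Trac*, *Trbc1*, *Trbc2* or *Trdc* moved the most values, and it left 7, 27 and 3 cells. The ratio of Palo to Vehicle in the share of cells became 0.0834, and NK cells became 22.6%, 16.4% and 11.1% of NK plus Cd3-positive cells. Genes past 2-fold became 77 of 435, 146 of 384 and 22 of 111 measured, against 268 of 2318, 329 of 2256 and 61 of 878. The counts fell with the genes measured, while the share past 2-fold rose. The Palo over Vehicle median of the interferon list became 1.59 and that of the proliferation list -6.59, both reversed, as was *Laptm5* in Palo over Matrigel-only at 0.65. *Gzmb* and *Irf8* in Palo over Vehicle became -8.94 and -6.65, from -2.77 and -2.47, values that rest on the 3 Palo cells left and the 5 CPM added. Requiring *Ncr1* or *Klrb1c* moved *Top2a* in the same comparison from 1.35 to 1.97. With genes of at least 1 UMI, 5147 of 10598, 5397 of 10493 and 4322 of 9073 measured genes were past 2-fold. The hypoxia list's Vehicle over Matrigel-only median then became -0.057, from 0.74. In Palo over Matrigel-only, 96 of 878 genes were past 2-fold by the mean of cells and 94 of 988 with no stromal limit. *Hnrnpu* in that comparison came to -0.012 with every cell thinned. Without thinning, a UMI was found for *Gzmb* in 53.8%, *Prf1* in 64.5%, *Eomes* in 61.3% and *Irf8* in 53.8% of Vehicle cells, and for *Eomes* in 35% of Palo cells. Allowing 1 UMI of *C1qa* or *Csf1r* was an alternative chosen after seeing the data. The causes were not tested. Over 9 membership alternatives the share ratio ranged from 4.01 to 6.15 for Vehicle to Matrigel-only. Few cells and the lack of replicate libraries limit all values. No paired analysis was possible because each condition has 1 library.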
